A study of Mus musculus with 160 samples.

Results

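The cells described here are 45 young mouse bone marrow stromal cells that listed Serpina3n RNA at 1 FPKM or more, set beside 22 young stromal cells that did not. FPKM counts sequenced fragments per length of the transcript and per number of fragments mapped in that cell. Together these are the 67 of 82 young cells in which at least 600 named genes were listed at 1 FPKM or more, out of 160 cells in the series. The side of a cell was set by its own Serpina3n value, so that value is a description, and so is every difference of another gene between the sides. In the deposited table Serpina3n shares a row with its neighbour Serpina3m, and the joint value cannot be given to 1 of them.

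Young cells came from the bone marrow of C57BL/6J mice aged 9 weeks by the sample labels and 10 weeks by the protocol. Old cells came from C57BL/6J mice of 24 months by the labels and 2 years by the protocol. All cells were sorted as negative for CD45, Ter119 and CD31 (blood, erythroid and endothelial surface proteins) and positive for the leptin receptor LepR and for CD140a, which is encoded by Pdgfra. Single cells were caught on a Fluidigm C1 chip, with 96 wells counted per age, of which 83 young and 79 old wells passed inspection under the microscope. No mutant or treatment is named for these cells. No animal is named either, so the young cells are 1 sample, no test of replicates exists within them, and all intervals below are exact Clopper-Pearson 95% intervals that cover counting error only.

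Serpina3n encodes a secreted inhibitor of serine proteases and belongs to a cluster of Serpina3 genes that expanded in the mouse from the counterpart of human SERPINA3, alpha-1-antichymotrypsin. It is an acute-phase protein: inflammatory cytokines induce it through STAT3 and NF-kB, and glucocorticoids induce it as well. LepR+ marrow stromal cells surround blood vessels and supply blood stem cells with the chemokine Cxcl12 and with stem cell factor, the product of Kitl.

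The Serpina3n row was listed in 45 of 67 young cells, or 67.2% (54.6 to 78.2%). Among these 45 cells the level was 1.96 FPKM at the lowest, 32.6 FPKM at the median and 1069 FPKM at the highest, with quartiles of 11.2 and 98.2 FPKM. In the 22 cells without it the level was 0 at the lowest and at the median, and 0.244 FPKM at the highest. The values just inside the threshold were 1.96, 2.39 and 2.56 FPKM, and those just outside were 0.244, 0.0612 and 0.021 FPKM, so no cell lay between 0.244 and 1.96 FPKM. The row was at 10 FPKM or more in 34 of the 67 cells and at 100 FPKM or more in 11. It was exactly 0 in 13 cells and above 0 but under 1 FPKM in 9. Among the 15 young cells with fewer than 600 listed genes, 7 listed the row, or 46.7% (21.3 to 73.4%).

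**Figure D1:**
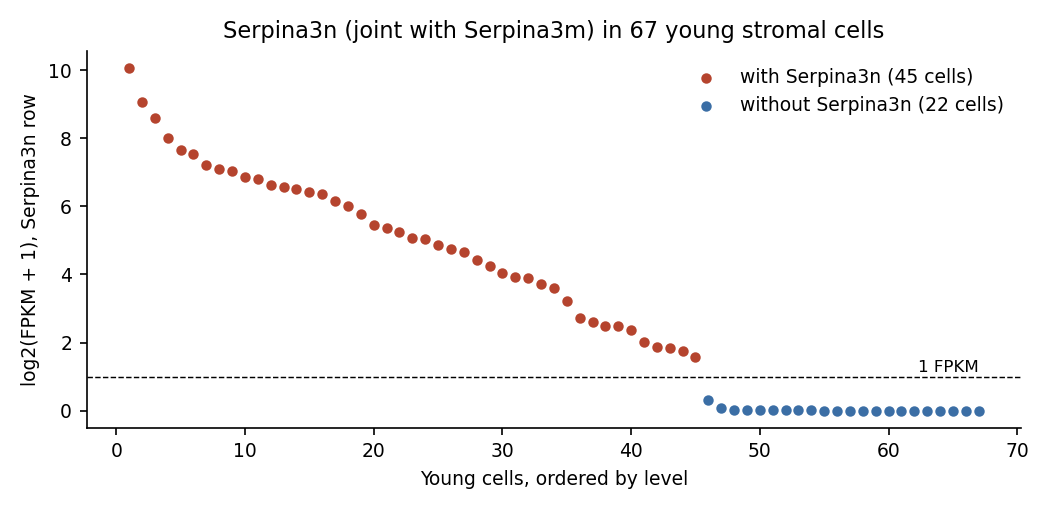
Level of the Serpina3n row, joint with Serpina3m, in each of the 67 young cells, ordered from high to low; the vertical axis is log2(FPKM + 1), red points are the 45 cells with Serpina3n, blue points the 22 cells without, and the dashed line is 1 FPKM. The cells with Serpina3n span 1.96 to 1069 FPKM without a step, and the 22 cells without it lie at or under 0.244 FPKM.

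An exact 0 in such a table can be a failed estimate as well as a missing transcript. Gapdh, an enzyme of glycolysis that cells in general use, was listed at exactly 0 in 23 of the 45 cells with Serpina3n and in 11 of the 22 without. Col1a1 was at exactly 0 in 33 of 45 and 18 of 22 cells, while Actb and B2m were at 0 in none of them. The number of listed genes per cell was 1211 at the median in cells with Serpina3n (612 to 1947) and 1310 in cells without (605 to 2129). Summed FPKM over named genes had medians of 70438 and 74835, and 4 of 45 and 1 of 22 cells exceeded 3 times the median of all compared cells. The part of these gene numbers in the results below was not tested beyond the adjusted values given there.

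Both sets of cells carried the stromal identity genes that define this population. Cxcl12 was listed in 45 of 45 cells with Serpina3n, at 209, 964 and 3526 FPKM for the lowest, median and highest cell. In the cells without it was listed in 22 of 22, at 315, 998 and 2068 FPKM. Lepr was also listed in 45 of 45 and 22 of 22 cells, with medians of 66.7 FPKM in cells with Serpina3n and 85.7 FPKM in cells without. Kitl was listed in 44 of 45 and 21 of 22 cells, and Adipoq, the hormone adiponectin, in 42 of 45 and 22 of 22. Pdgfra, the gene of the sorted CD140a protein, was listed in 17 of 45 cells with Serpina3n (37.8%, 23.8 to 53.5%) and 9 of 22 without (40.9%, 20.7 to 63.6%). The transcription factors Foxc1 and Ebf3, which maintain these niche cells, were listed in 31 and 34 of 45 cells against 13 and 18 of 22.

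Markers of other cells that a sort could let through were sparse on both sides. The gate genes Ptprc (CD45) and Pecam1 (CD31) were listed in 0 of 45 and 0 of 22 cells. The exact intervals for such counts allow shares of up to 7.87% and 15.4%. All 7 megakaryocyte markers were also at 0. Of 17 hematopoietic markers, 2 were listed in any of the cells with Serpina3n and 1 in any of those without. At least 1 of them was listed in 5 of 45 and in 2 of 22 cells, with summed levels of 0 to 30.6 FPKM and 0 to 91.3 FPKM. The defining genes Csf1r, Itgam and Cd3e were at 0 throughout. Of 12 neutrophil granule markers, 2 and 1 were listed in any cell, reaching at most 32.2 FPKM in cells with Serpina3n and 17.9 FPKM in cells without, and Mpo, Elane and Ltf were at 0. Of 13 endothelial markers Fabp4, which fat cells also express, was the only one listed, in 7 of 45 and 2 of 22 cells, at up to 629 and 201 FPKM, with Cdh5, Kdr and Tek at 0. Of 9 erythroid markers 1 was listed on each side, in 1 cell each, at up to 36.9 FPKM with Serpina3n and 3.39 FPKM without.

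Pericyte and smooth muscle genes were listed in 33 of 45 and 13 of 22 cells, at summed levels of 0 to 345 and 0 to 456 FPKM, led by the myosin kinase gene Mylk in 28 and 13 cells, with Acta2, Myh11, Cspg4 and Mcam at 0. Des and Tagln were listed in cells with Serpina3n and in 0 of those without, and Rgs5 the other way round. Schwann cell list members were listed in 32 of 45 and 15 of 22 cells and 3 or more of them together in 3 and 3 cells, at summed levels of 0 to 3352 and 0 to 304 FPKM. These members were mainly S100b, Pmp22 and Ncam1, whereas Sox10, Mbp, Ngfr and Gfap were at 0. Egfl8 was listed in cells with Serpina3n and in 0 of those without. Of 8 chondrocyte markers 5 and 1 were listed in any cell, in 13 of 45 and 5 of 22 cells, at summed levels of 0 to 110 and 0 to 56.4 FPKM, with Acan at 0. Col2a1, Sox9, Comp and Col10a1 were each listed in at least 1 cell with Serpina3n and in 0 of those without. Of 18 cell cycle markers 7 and 6 were listed in any cell, at summed levels of 0 to 311 and 0 to 537 FPKM, with Mki67, Top2a and Cdk1 at 0. The part of these markers in the differences below was not tested.

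Across the other genes, the sides were compared by the difference of mean log2(FPKM + 1), with minus without Serpina3n, over 1715 genes listed in at least 20% of the 67 cells. That share was counted over both sides together, so a gene could pass through 1 side alone. Nfkbiz, listed in 9.09% of the cells without Serpina3n, and Gadd45b, in 4.55%, passed through the cells with it. A gene was called when the difference reached 1 log2 unit in either direction and the share of cells listing it differed in the same direction. Of the 1715 genes, 36 were called higher (2.1%) and 141 lower (8.22%), together 10.3%, and 38.5% had a difference above 0. The median difference over all 1715 genes was -0.15, with quartiles of -0.55 and 0.20. Levels varied far more among cells than between the sides, since the median SD of a gene over cells was 2.18 log2 units. Of the 177 called genes, Psma4 was the only one whose 2 share intervals did not overlap. The same count over all 1715 genes is not given here, so this describes the called genes only. With the number of listed genes of the cell as a covariate, 52 genes were called higher and 109 lower, so that 32.3% of calls were higher against 20.3% without it. The split between higher and lower turned with the choice of cells and threshold: 69 higher and 24 lower with all 82 young cells, and 66 higher and 45 lower with the cells divided at 10 FPKM.

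Of the other genes of the cluster, Serpina3c, the joint row of Serpina3f and Serpina3g, and Serpina12 had higher means in the cells with Serpina3n, and Serpina3c was called. Serpina3c, a secreted serpin of the same cluster, was listed in 19 of 45 cells with Serpina3n (42.2%, 27.7 to 57.8%) and in 5 of 22 without (22.7%, 7.82 to 45.4%). Its lowest, median and highest values were 0, 0.0391 and 635 FPKM with Serpina3n, against 0, 0.0105 and 75.2 FPKM without. Mean log2(FPKM + 1) was 2.30 ± 2.97 with Serpina3n and 1.02 ± 1.98 without (SD over cells), a difference of 1.29 log2 units, and the gene was called. Both sides held many cells at or near 0, and the highest Serpina3c cells were among those with Serpina3n. Where Serpina3c was listed, its median was 41 FPKM in the 19 cells and 13.1 FPKM in the 5.

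Serpina3g, an intracellular serpin that also inhibits cysteine cathepsins, shares a row with Serpina3f. It was listed in 28 of 45 cells with Serpina3n (62.2%, 46.5 to 76.2%) and in 10 of 22 without (45.5%, 24.4 to 67.8%), at medians of 8.39 and 0.316 FPKM and up to 573 and 354 FPKM. The difference of 0.94 fell short of a call. Where it was listed, the median level was 37.6 FPKM with Serpina3n and 47.7 FPKM without, so the share of listing cells was higher with Serpina3n while the level of those cells was not. Serpina3c and the Serpina3f/Serpina3g row were listed together in 13 of the 45 cells, Serpina3c alone in 6, Serpina3f/Serpina3g alone in 15 and neither in 11. In the 22 cells without Serpina3n these counts were 2, 3, 8 and 9.

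The rest of the cluster was not detected at 1 FPKM. Serpina3a, Serpina3b, Serpina3h, Serpina3i, Serpina3j and Serpina3k were each listed in 0 of 45 and 0 of 22 cells. Serpina12, the adipokine vaspin at the far end of the cluster, was listed in 14 of 45 and 3 of 22 cells with a difference of 0.55. Serpins encoded elsewhere had differences nearer to 0. Serpine2, an inhibitor of thrombin and plasminogen activators, was listed in 45 of 45 and 21 of 22 cells with a difference of 0.17. Serping1, the complement C1 inhibitor, was listed in every cell of both sets with a difference of -0.12. Serpinh1, the collagen chaperone Hsp47, had a difference of -0.38 with 15 of 45 and 9 of 22 cells. Of the 6 serpins of this list among the 1715 genes, 1 was called higher and 0 lower, beside 2.1% and 8.22% of all genes. The median of the 6 was 0.36, beside -0.15 for all genes. Without the filter on the share of cells the median of the list was -0.12.

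The cluster lies on chromosome 12 in the order Serpina12, Serpina3a, Serpina3b, Serpina3c, Serpina3f, Serpina3g, Serpina3h, Serpina3i, Serpina3j, Serpina3k, Serpina3m, Serpina3n, with other serpins and pseudogenes between them. Since the members are alike, fragments could be divided between them in ways the sources used here do not describe. In GENCODE mouse transcripts, 0.893% of the 50-base windows of Serpina3n transcripts were also found in Serpina3m, 1.24% in Serpina3c, 1.04% in Serpina3f and 2.53% in Serpina3g. How far such shared stretches moved FPKM between the rows was not tested.

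These promoters are shown because they let the letters upstream of Serpina3n be set beside those of Serpina3c and of Serpina3g, which is listed jointly with Serpina3f. Each line is the 250 bases before the transcription start, 5′ to 3′ on the gene's strand, from RefSeq on build GRCm38.p6. The windows are chr12:104406458-104406707 on the plus strand for Serpina3n, chr12:104153873-104154122 on the minus strand for Serpina3c and chr12:104235897-104236146 on the plus strand for Serpina3g. Capitals mark letters that match an NF-kB motif (GGG, a pair of free bases, TT, 1 free base and CC) or a STAT motif (TTCNNNGAA), searched on both strands.
Serpina3n: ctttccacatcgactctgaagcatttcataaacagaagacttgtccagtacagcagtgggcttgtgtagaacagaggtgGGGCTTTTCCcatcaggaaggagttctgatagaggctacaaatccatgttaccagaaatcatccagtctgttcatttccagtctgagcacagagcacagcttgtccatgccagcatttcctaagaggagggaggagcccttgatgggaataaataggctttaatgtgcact
Serpina3c: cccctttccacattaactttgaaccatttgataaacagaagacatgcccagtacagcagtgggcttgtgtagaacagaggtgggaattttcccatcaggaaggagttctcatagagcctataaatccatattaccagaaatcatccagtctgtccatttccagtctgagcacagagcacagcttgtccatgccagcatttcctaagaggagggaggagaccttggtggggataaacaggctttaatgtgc
Serpina3g: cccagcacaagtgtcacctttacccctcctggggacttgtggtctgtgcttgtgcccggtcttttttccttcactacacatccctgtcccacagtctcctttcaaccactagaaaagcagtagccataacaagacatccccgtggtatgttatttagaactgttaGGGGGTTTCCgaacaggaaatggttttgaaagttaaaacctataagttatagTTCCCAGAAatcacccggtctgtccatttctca

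Aligned end to end, the Serpina3n and Serpina3c windows were identical in 229 of 253 columns (90.5%), whereas Serpina3n and Serpina3g were identical in 46.2% of columns. The Serpina3n window holds 1 NF-kB match, GGGCTTTTCC, from 171 to 162 bases before the start, and the Serpina3c window holds neither motif. The Serpina3g window holds 1 match to each motif. Serpina3f, not printed here, has 2 windows in the RefSeq table, both with a STAT match and 1 with an NF-kB match, and the Serpina12 window holds neither motif. Among members not listed in any compared young cell, the Serpina3i window holds a STAT match and 2 overlapping NF-kB matches. The windows of Serpina3a, Serpina3b and Serpina3j hold neither motif. In the printed windows the matches did not overlap each other. A C/EBP motif (TTGCNNAA), searched as well, matched in windows of Serpina12, Serpina3b and Serpina3f and in none of those printed. Of 32841 promoters of the same length, 4.11% held the NF-kB letters, 7.02% the STAT letters and 9.57% the C/EBP letters. A match is a description of letters, not a site in use.

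**Figure D2:**
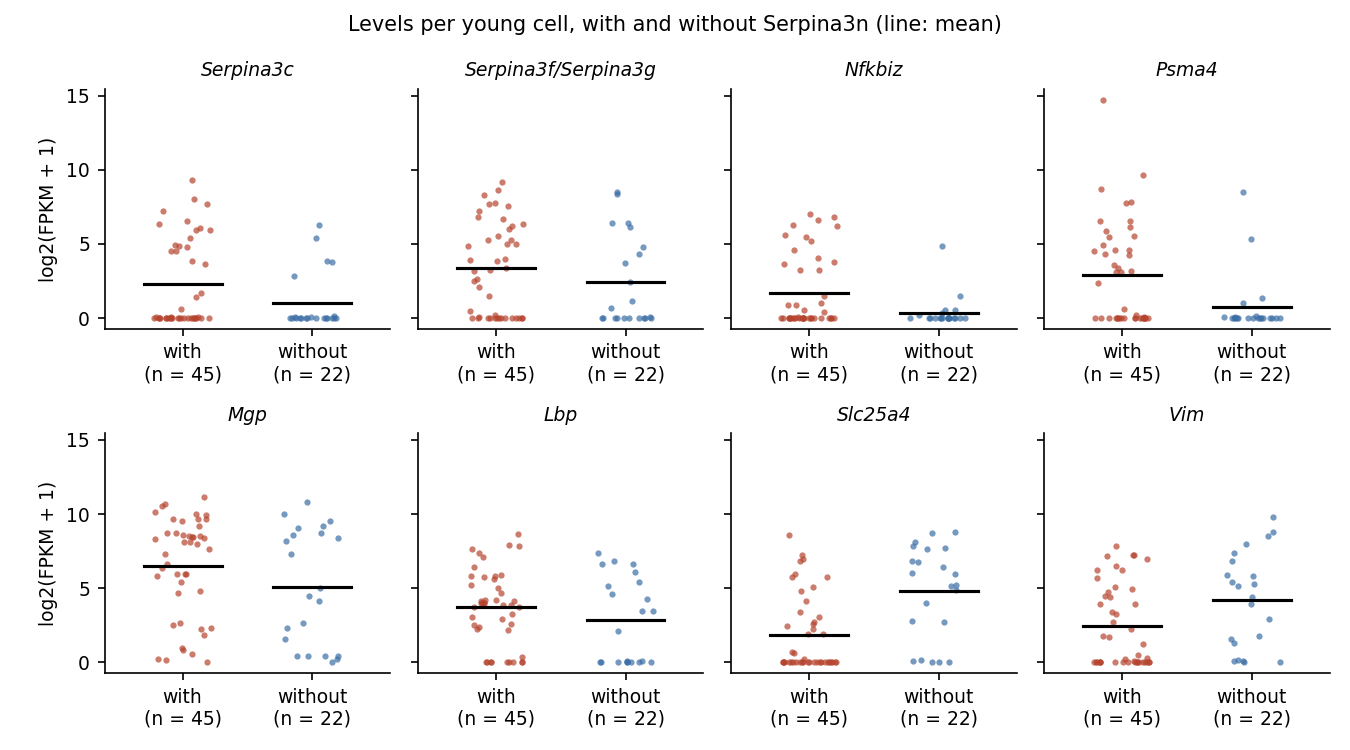
Level of 8 genes in each young cell as log2(FPKM + 1), with the 45 cells with Serpina3n in red on the left and the 22 cells without in blue on the right of each panel; points are cells and the line is the mean. Both sets overlap in every panel, and the share of cells listed at 1 FPKM or more differs, as for Nfkbiz (16 of 45 and 2 of 22 cells) and Slc25a4 (18 of 45 and 17 of 22).

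Among the other acute-phase and secreted defence genes, 12 of 18 members had a difference above 0, beside 38.5% of all 1715 genes. Of these 18 members none was called higher and 2 were called lower, beside 2.1% and 8.22% of all genes. Their median was 0.22 beside -0.15 for all genes, and it stayed between 0.15 and 0.78 under the 14 alternative settings. Lbp, the liver and stromal protein that hands bacterial lipopolysaccharide to its receptor, was listed in 35 of 45 cells with Serpina3n (77.8%, 62.9 to 88.8%) and 12 of 22 without (54.5%, 32.2 to 75.6%). Its median was 14.8 FPKM with Serpina3n and 6.55 FPKM without, with highest cells at 398 and 162 FPKM, and the difference was 0.86. Where Lbp was listed, the order was the other way, with medians of 16.9 FPKM with Serpina3n and 38.7 FPKM without. Complement C3 was listed in 13 of 45 and 3 of 22 cells, at up to 835 and 8.72 FPKM, with a difference of 0.91. A single cell carried 79.2% of the summed FPKM of C3. Cfb, the complement factor B that works with C3, was listed in 13 of 45 and 1 of 22 cells with a difference of 0.77.

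Apod, a lipid carrier, was listed in 20 of 45 and 7 of 22 cells with a difference of 0.87. The receptor for interleukin 1, Il1r1, was listed in 39 of 45 and 15 of 22 cells at medians of 45.9 and 41.1 FPKM, and its difference was 0.69. Haptoglobin (Hp), which binds free hemoglobin, was listed in 40 of 45 and 18 of 22 cells with a difference of 0.14. The ferroxidase ceruloplasmin (Cp) was called lower. It had a difference of -1.24, with 40 of 45 and 21 of 22 cells. Cp, Cfb and Apod were picked out after their values were seen.

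**Figure D3:**
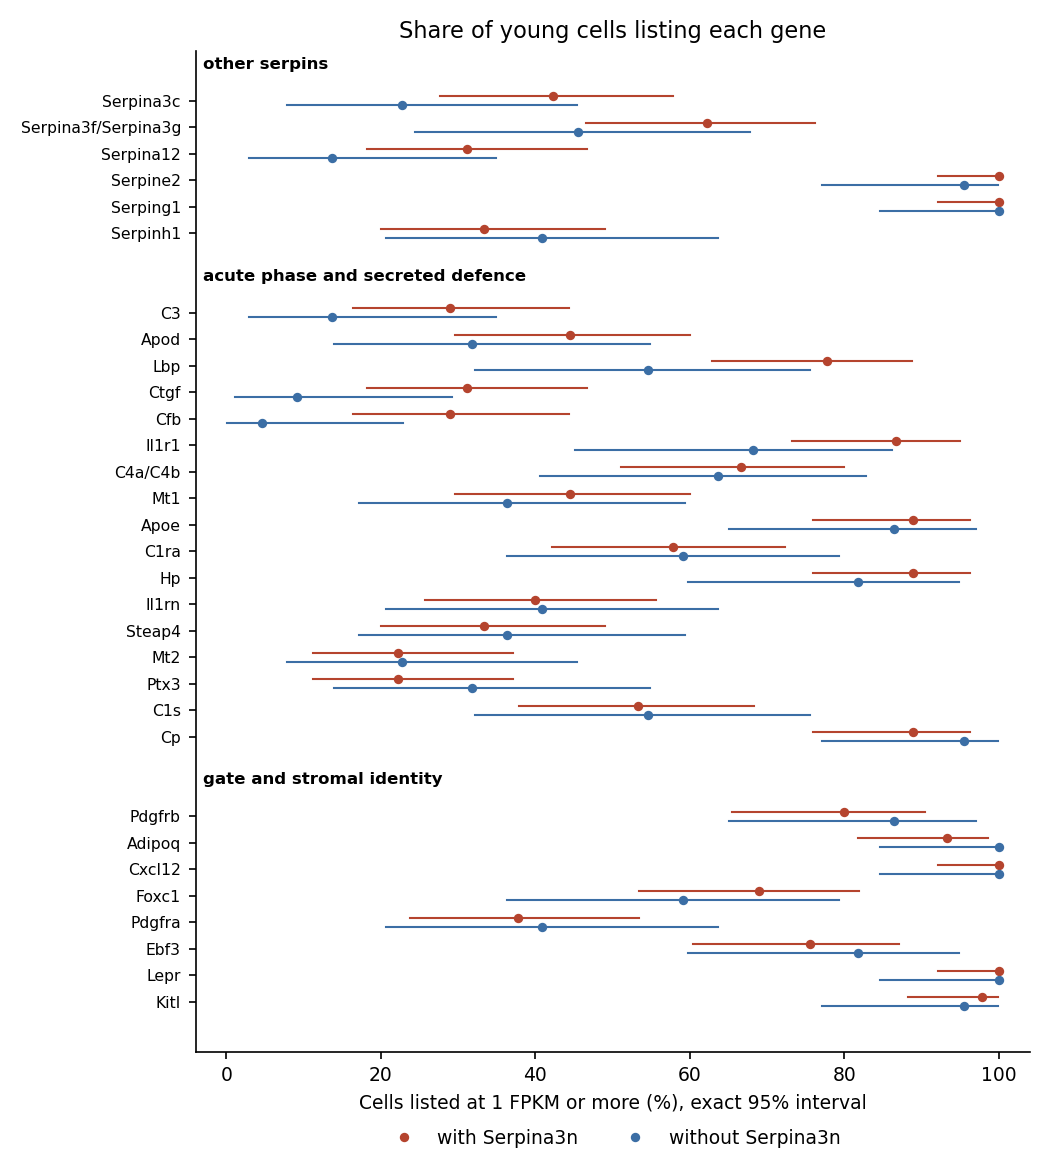
Share of young cells listing each gene at 1 FPKM or more, in percent, for other serpins, genes of the acute-phase list and identity genes; red is the 45 cells with Serpina3n, drawn above blue for the 22 cells without, and bars are exact 95% intervals. The 2 intervals overlap for every gene shown, from Serpina3c (42.2 and 22.7%) to Kitl (44 of 45 and 21 of 22 cells).

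Within the 45 cells, which the threshold on the same row chose, its level above the threshold was set against other genes. Over these 45 cells, which share an age group and differ in the number of listed genes, the median Spearman rho of a gene with the Serpina3n row was 0.05, and 63.6% of the 1715 genes had a rho above 0. The middle 90% of genes lay between -0.20 and 0.28. The metallothionein Mt1 had a rho of 0.36, Lbp of 0.33, Hp of 0.33, Serpina3c of 0.27 and the Serpina3f/Serpina3g row of 0.17. In the same lists Ctgf (-0.23), Serpina12 (-0.10), C1s (-0.09), Apoe (-0.05) and Cfb (-0.05) lay below 0. The median rho was 0.13 over the 18 acute-phase genes and 0.16 over the 6 other serpins, beside 0.05 for all genes. The 36 genes called higher had a median rho of 0.068 (27 of 36 above 0) and the 141 called lower one of 0.037 (87 of 141 above 0). Both medians lay within the middle 90% of all genes. Values this small, from sparse data, describe these cells and are not a finding. Over all 67 cells the 5 genes most like the Serpina3n row by rho were Psma4 (0.37), Bcap31 (0.36), Tpt1 (0.36), Eef1d (0.35) and Dnajc8 (0.34). Tpt1 and Dnajc8 kept a rho of 0.48 and 0.40 within the 45 cells, while Psma4 had 0.16 there.

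The pathways that drive Serpina3n elsewhere were read through their own target and signalling genes. Of 7 genes from a list of NF-kB targets and chemokines, 1 was called higher and 0 lower, beside 2.1% and 8.22% of all 1715 genes. The median was 0.69 beside -0.15. The list also holds the receptors Il1r1 and Tnfrsf1a, both at 0.69. Tnfrsf1a was listed in a smaller share of cells with Serpina3n (26.7%) than without (31.8%). Nfkbiz, the nuclear protein IkB-zeta that switches on a subset of NF-kB targets, was listed in 16 of 45 cells with Serpina3n (35.6%, 21.9 to 51.2%) and 2 of 22 without (9.09%, 1.12 to 29.2%). It reached 129 FPKM with Serpina3n and 28.6 FPKM without, and its difference was 1.35. Vcam1, an adhesion molecule induced by NF-kB, was listed in 44 of 45 and 21 of 22 cells at medians of 90.3 and 53.5 FPKM, with a difference of 0.69. A single cell carried 38% of its summed FPKM. Nfkbia was at 0.13 with 22 of 45 and 9 of 22 cells. Cxcl14 (-0.26) and Csf1, the macrophage growth factor (-0.60), stood on the other side. Tnfrsf1a, Nfkbia and Cxcl14 were picked out after their values were seen. The median of this list was -0.05 in cells with 1000 or more listed genes and -0.14 in cells within the interquartile range of gene number, and Vcam1 was -0.05 and -0.41 under the same settings.

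Of 12 genes of gp130 and STAT3 signalling, 0 were called higher and 2 lower, beside 2.1% and 8.22% of all genes, with a median of -0.38 beside -0.15. The oncostatin M receptor Osmr was listed in 11 of 45 cells with Serpina3n (12.9 to 39.5%) and 11 of 22 without (28.2 to 71.8%), and its difference was -1.30. Jak1, the kinase below that receptor, was listed in 16 of 45 and 12 of 22 cells with a difference of -1.02, and Stat3 itself had a difference of -0.81. Of the 12 genes, 4 had a difference above 0 and 8 below. The 4 were Il6st, which encodes gp130 (0.17), Pim1 (0.15), Junb (0.13) and Socs2 (0.07), and Cebpd was at -0.10. With all 82 young cells the median of this list was 0.19. Of 13 glucocorticoid response genes, 0 were called higher and 1 lower, beside the same 2.1% and 8.22% of all genes, with a median of 0.09. Errfi1, a feedback inhibitor of the EGF receptor, was the one called lower at -1.51. Tsc22d3, the leucine zipper protein GILZ that glucocorticoids induce, was at -0.53, and Klf9 at 0.92. Jak1, Stat3, Pim1, Junb, Socs2 and Cebpd were picked out after their values were seen.

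At the top of the ranking stood Psma4, a subunit of the 20S proteasome, with a difference of 2.18. It was listed in 23 of 45 cells with Serpina3n (51.1%, 35.8 to 66.3%) and 3 of 22 without (13.6%, 2.91 to 34.9%), at a median of 4.12 FPKM with Serpina3n and 0 without. A single cell with Serpina3n held 26839 FPKM and 91.0% of the summed FPKM of the gene. The same cell had the highest value of the Serpina3n row, 1069 FPKM, and listed 654 genes. Srsf5, an SR protein of splicing, followed at 1.54 with 29 of 45 and 9 of 22 cells, then Sap18 and Ttc3 at 1.48 each. The oxidative enzyme subunit Cox6a1 stood at 1.45, Krtcap2, a part of the complex that adds sugars to new secreted proteins, at 1.40, and the vesicle GTPase Arf4 at 1.38. Atp5f1 and Commd3 both stood at 1.34, and the peroxide-reducing enzyme Gpx1 at 1.28 with 18 of 45 and 3 of 22 cells. The joint row of Hoxa10 and Hoxa9, homeobox factors that give cells their position along the body and the limb, was listed in 23 of 45 cells with Serpina3n (51.1%) and 4 of 22 without (18.2%, 5.19 to 40.3%). Its difference was 1.26.

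Mgp, a secreted inhibitor of mineralization, was called as well. It was listed in 39 of 45 cells with Serpina3n and 16 of 22 without, with a median of 246 FPKM in cells with Serpina3n and 26.3 FPKM in cells without. The difference was 1.40, and the highest cells reached 2301 and 1759.5 FPKM. Where Mgp was listed, its median was 314 FPKM with Serpina3n and 310.2 FPKM without, so the levels of listing cells lay close together.

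The lowest difference was that of Slc25a4, the ADP/ATP carrier of the inner mitochondrial membrane, at -2.97. It was listed in 18 of 45 cells with Serpina3n (interval 25.7 to 55.7%) and in 17 of 22 without (77.3%, 54.6 to 92.2%), at medians of 0.0308 and 49.3 FPKM. Mean log2(FPKM + 1) was 1.85 ± 2.56 with Serpina3n and 4.82 ± 3.12 without (SD over cells). Where it was listed, the median was 21.8 FPKM with Serpina3n and 86.8 FPKM without, so both the share and the level were lower. The ATP synthase subunit Atp5c1 followed at -2.27 and the glycolytic enzyme Aldoa at -2.21, which was listed in 22 of 45 and 15 of 22 cells. Sarnp stood at -2.06, Hypk at -1.93, Spin1 at -1.88 and Atp5l at -1.86. The row of the transcription factor Zeb2, joint with the microRNA gene Mir5129 inside it, was at -1.84 with 25 of 45 and 19 of 22 cells.

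Vim, the intermediate filament protein vimentin of mesenchymal cells, was listed in 23 of 45 cells with Serpina3n (51.1%, 35.8 to 66.3%) and 17 of 22 without (77.3%, 54.6 to 92.2%). Its medians were 1.33 and 26.9 FPKM and its difference -1.78. The histone H3f3a was at -1.77, the cell surface proteoglycan Gpc1 at -1.70, Ost4 at -1.69 and the heterochromatin protein Cbx3, listed in 36 of 45 and 22 of 22 cells, at -1.68. All 28 genes at these ends kept the sign of their difference under all 14 alternative settings. Of them, 2 passed 1 log2 unit under every setting, Slc25a4 (-4.13 to -1.69) and Aldoa (-2.94 to -1.2). Of the 14 settings, 2 changed only the filter on the share of cells, which cannot move the difference of a gene. The 28 genes were also picked as the extremes of these same cells. Their kept signs are therefore a description, not a test. Serpina3c ranged over 0.70 to 1.91, Nfkbiz over 0.60 to 2.12 and Psma4 over 0.86 to 3.34.

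**Figure D4:**
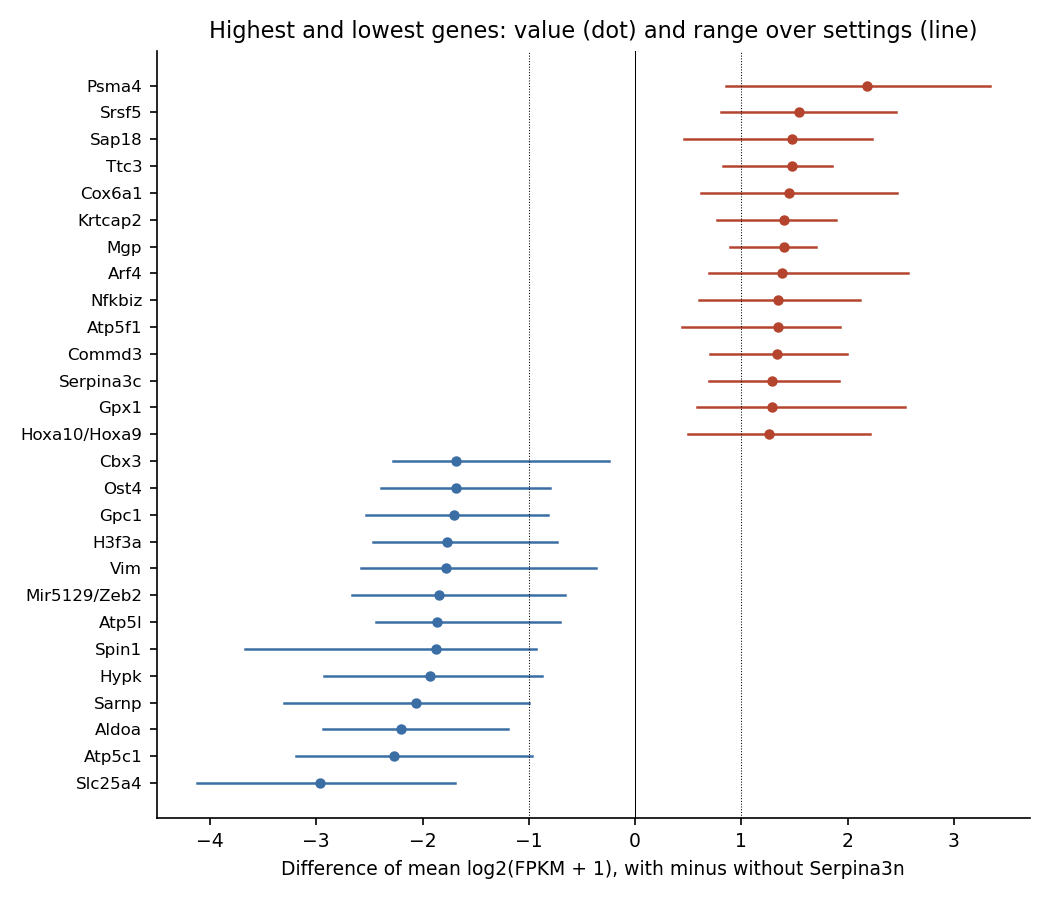
Difference of mean log2(FPKM + 1), with minus without Serpina3n, for genes at the high end (red) and the low end (blue) of the ranking; dots are the reported values and lines run from the lowest to the highest value over the alternative settings, with dotted lines at 1 log2 unit. Every line stays on its own side of 0, and the lines of Slc25a4 and Aldoa lie wholly beyond 1 log2 unit. The genes were picked as extremes of these same cells, and settings that changed only the share filter could not move them.

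Genes of oxidative phosphorylation had the lowest median of the 24 lists plotted. Of 47 members, 10 were called lower and 4 higher, beside the 8.22% and 2.1% of all genes, and 34 had a difference below 0. Their median was -0.49, and -0.20 with the number of listed genes as a covariate. The called members were split within single complexes. In the ATP synthase, Atp5c1 (-2.27), Atp5l (-1.86), Atp5o (-1.53) and Atp5j (-1.24) were lower while Atp5f1 (1.34) and Atp5g3 (1.07) were higher. In cytochrome c oxidase, Cox8a (-1.51) and Cox7c (-1.24) were lower while Cox6a1 (1.45) and Cox6c (1.04) were higher. These subunit genes were listed in case by case numbers of cells, from 11 of 45 and 10 of 22 for Atp5j to 31 of 45 and 13 of 22 for Cox6c. Ribosomal protein genes, 80 in number, had 2 called higher and 7 lower, shares close to those of all genes, with a median of -0.19, which the same covariate moved to 0.02.

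Of 14 supply genes of the blood stem cell niche, 0 were called, beside 10.3% of all 1715 genes called either way. The median of these 14 niche factors was -0.32, beside -0.15 for all genes. Angpt1 was the lowest at -0.86, with 23 of 45 and 12 of 22 cells, and Vcam1 the highest at 0.69. Kitl had medians of 64.2 FPKM with Serpina3n and 120 FPKM without, and a difference of -0.57. Spp1, the secreted matrix protein osteopontin, was listed in 40 of 45 cells with Serpina3n (88.9%, 75.9 to 96.3%) and 17 of 22 without (77.3%, 54.6 to 92.2%). Its medians were 100.1 and 115 FPKM, and its difference of 0.21 changed sign under 4 of 14 settings, among them rescaling every cell to the same sum (-0.02). The median of the niche list was 0.10 with all young cells.

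Of 15 stromal transcription factors, the Hoxa10/Hoxa9 row was called higher and the Zeb2 row lower, with a median of -0.22. The counts of this paragraph stand beside 2.1% called higher and 8.22% lower over all 1715 genes. Ebf1 (-0.22), Runx1 (-0.00) and the Runx2/Supt3 row (0.41) were not called. Of 6 adipogenic genes none was called (median 0.09). Lpl, the lipase of fat uptake, was at -0.11 and Agt, angiotensinogen, at 0.59. Of 16 osteogenic and mineral matrix genes Mgp was called higher and none lower (median 0.11). Ibsp, bone sialoprotein, was listed in 45 of 45 and 21 of 22 cells with a difference of 0.20. Of 22 fibroblast and matrix genes Vim was called lower and none higher (median -0.25). Lamb1, a laminin chain, stood at 0.83 and Igfbp5, which binds insulin-like growth factors, at -0.77. Runx1, Runx2/Supt3 and Lpl fall outside the naming rule and were picked after their values were seen.

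**Figure D5:**
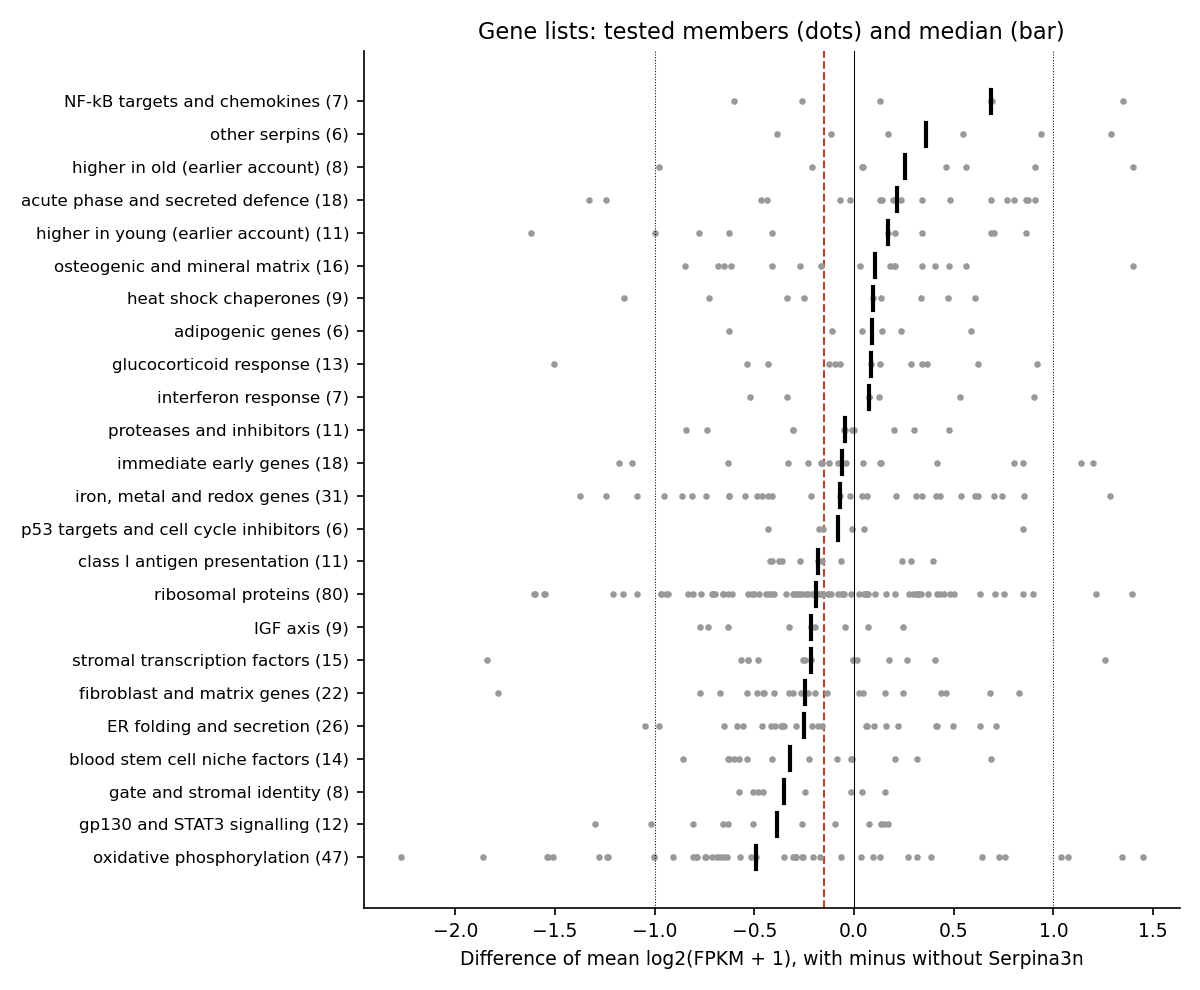
Difference of mean log2(FPKM + 1), with minus without Serpina3n, for the members of 24 gene lists; each grey dot is a gene, the black bar the median of the list, the number of members is in brackets, the red dashed line is the median of all 1715 genes (-0.15) and dotted lines mark 1 log2 unit. List medians run from 0.69 for NF-kB targets and chemokines to -0.49 for oxidative phosphorylation, and the members of most lists spread on both sides of 0.

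Immediate early genes, which mark recent stimulation or handling of a cell, went both ways. Of 18, 2 were called higher and 2 lower, beside 2.1% and 8.22% of all 1715 genes. The median of the list was -0.06, and 0.05 with the number of listed genes as a covariate. Gadd45b, a stress sensor and NF-kB target, was listed in 14 of 45 cells with Serpina3n (31.1%, 18.2 to 46.6%) and 1 of 22 without (4.55%, 0.115 to 22.8%), with a difference of 1.2. Zfp36l1, which speeds the decay of mRNA, was at 1.14. Klf6 (-1.18) and Cyr61 (-1.11) were called lower, and Fos was at -0.63 with 39 of 45 and 20 of 22 cells. Of 9 heat shock chaperones Hspa8 was called lower (-1.15), and Cct4 was the highest at 0.61. The median of that list was 0.09, and -0.13 after rescaling to the same sum.

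Of 26 genes of folding and secretion in the endoplasmic reticulum, 0 were called higher and 1 lower, beside 2.1% and 8.22% of all 1715 genes (median -0.25). Sec61g, a part of the protein channel into that compartment, was at -1.05, the chaperone Hspa5 at -0.98 and Ssr2 at 0.71. The median of the list was 0.07 with cells divided at 10 FPKM. Of 11 proteases and inhibitors that could meet serpins, such as cathepsin L (Ctsl, -0.84) and the collagenase Mmp13 (0.48), none was called and the median was -0.04. Of 7 interferon response genes (median 0.07), 11 genes of class I antigen presentation (-0.18), 9 genes of the IGF axis (-0.21) and 6 p53 targets and cell cycle inhibitors (-0.08), none was called. Over all 1715 genes 10.3% were called either way. Cdkn1a, the cell cycle inhibitor p21, was listed in 15 of 45 and 8 of 22 cells with a difference of -0.43.

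Of 31 iron, metal and redox genes, Gpx1 was called higher and Cp and Mgst1, a membrane glutathione transferase, were called lower (median -0.07). Over all 1715 genes 2.1% were called higher and 8.22% lower. Mgst1 stood at -1.37 with 34 of 45 and 19 of 22 cells. The ferritin heavy chain Fth1 had a difference of -1.09 but was listed in all 67 cells and so was not called. Of the identity list none of 8 members was called, and its median was -0.35, and 0.28 with all young cells. Among the other-cell markers that passed the 20% filter, S100b was called lower (-1.12, 10 of 45 and 9 of 22 cells), Pmp22 was at -0.58 and Mylk at 0.18. Y-linked RNA was listed in 19 of 45 and 12 of 22 cells, and Uty, the Y-linked gene that passed the filter, was at -0.82. Uty was listed in 9 of 45 and 6 of 22 young cells. In old cells it was listed in 0 of 4 with Serpina3n and 0 of 54 without. The source of that difference between the ages was not tested.

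Genes that separate young from old cells in an account of these same samples did not all follow Serpina3n within the young cells. Of 11 such genes higher in young cells, 0 were called higher and 1 lower: Cldn10, a tight junction protein, at -1.62 with 24 of 45 and 17 of 22 cells. The median of these 11 was 0.17, beside -0.15 for all 1715 genes, of which 2.1% were called higher and 8.22% lower. Of 8 genes higher in old cells, Mgp was called higher and none lower, with a median of 0.25. Both lists were chosen on these samples and are not independent of them.

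The old cells, which had no part in the choice, held few Serpina3n cells. The row was listed in 4 of 58 old cells with 600 or more genes, or 6.90% (1.91 to 16.7%), at 18.9, 12.6, 2.91 and 2.83 FPKM. Of the 36 genes called higher in young cells with Serpina3n, 16 (44.4%) were also above 0 with the old cells divided the same way, beside 55.4% of all 1715 genes. Of the 141 called lower, 65 were below 0 in old cells, beside 764 of all 1715 genes, and the median difference in old cells was 0.15 over these 141 and 0.16 over all. With 4 cells on 1 side these are values without an error. The 4 old cells listed 1537 genes at the median (1388 to 1877), and the 54 without Serpina3n listed 1285 (622 to 2779). In young cells the order was the other way, with medians of 1211 and 1310. The part of gene number in the old-cell differences was not tested. Serpina3c was listed in 2 of the 4 old cells with Serpina3n, at 61.7 and 2.23 FPKM, and in 7 of the 54 without (13%, 5.37 to 24.9%). The Serpina3f/Serpina3g row was listed in 2 of the 4, at 90.7 and 8.41 FPKM, and in 25 of the 54 (46.3%, 32.6 to 60.4%).

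The same 2 old cells listed both of these rows. Nfkbiz was listed in 3 of the 4 old cells at 3.05, 1.69 and 1.42 FPKM, and in 16 of 54 without Serpina3n. Its difference was -0.15 in old cells, against 1.35 in young cells. Gadd45b was listed in 0 of 4 and 8 of 54 (difference -0.68) and Lbp in 1 of 4 and 15 of 54 (-0.33). Mgp was listed in 4 of 4 and 49 of 54, with a difference of -1.25 in old cells and 1.40 in young cells. Slc25a4 was listed in 2 of 4 and 22 of 54 old cells with a difference of -0.82. Vim, lower in young cells with Serpina3n, had a difference of 2.56 in old cells, with 4 of 4 and 37 of 54 cells listed.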

How the data were processed

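Values were FPKM deposited by the authors as 1 table of genes by cells. Cufflinks 2.1.1 and the mouse build mm9 are named per the submitters' processing notes, while the filters, the aligner settings and the sequencing yield of each cell are not stated there. Depth is therefore unknown, and a count model could not be used. Of 31199 rows, 7751 had no name and stayed outside all comparisons; the 23448 named rows hold 22866 names, rows of 468 repeated names were summed, and 319 names join several symbols. Cells with at least 600 named genes at 1 FPKM or more were kept and divided at 1 FPKM of the Serpina3n row. Spike RNAs were not used, and no doublet caller was run because wells with several cells were set aside by microscope, per the labels' protocols. A pseudocount of 1 FPKM was added before log2, which understates differences of low genes. Python 3.11.15, numpy 2.4.6, pandas 2.3.3 and scipy 1.17.1 were used. The formula of the comparison was checked on the real young cells divided at random, with known fold changes planted in a set of genes. The 35 gene lists, the cells and the measures were chosen with earlier results of these data known. Named genes were the 14 highest and 14 lowest differences with the share in the same direction, leaving out predicted, ribosomal protein and small RNA genes, the extremes and the 2 most abundant members of each list, the Serpina3 family, the gate genes, Spp1, Lbp, Vcam1 and the 5 genes of highest rho. Other list members named in the text were picked after their values were seen, and a few genes are not reported here. The table's build differs from that of the reference, so the gene order and the promoters of the reference were used with its own build named. Alternatives changed the pseudocount, filters, cells, threshold, scaling and call rule.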

Additional observations from a re-analysis of the deposited data

Results flagged for a closer look

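Rows without a gene name, which no comparison used, carried signal in every cell. In young cells with Serpina3n they took up 44.7% of all FPKM at the median, and in young cells without it 43.1%, with ranges of 22.2 to 99.7% and 24.9 to 91.2%. No group of 4 to 10 samples exists here, so no single sample was looked for as far from the others.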

How the results depend on the processing

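The counts of called genes, 36 higher and 141 lower, moved with several settings. They were 135 and 350 with a pseudocount of 0.1 FPKM, 1 and 9 with 10 FPKM, 10 and 43 among genes listed in 50% of cells, 69 and 24 with all young cells, 66 and 45 with cells divided at 10 FPKM, and 180 and 252 in the interquartile range of gene number (25 and 8 cells). They were 92 and 201 in cells with 1000 genes, 92 and 183 with cells divided at any FPKM above 0, and 139 and 193 for 10 FPKM or more against 0. The median number of listed genes was -99 with minus without Serpina3n. That difference reversed to 64 with all young cells, 165 with cells divided above 0, 54 at 10 FPKM and 155 for 10 FPKM or more against 0, and was -179.5 in cells with 1000 genes and -58 in the interquartile range. The share of young cells with Serpina3n, 67.2%, was 80.6% at any FPKM above 0 and 50.7% at 10 FPKM, settings for the share chosen after seeing the data. The cause of these moves was not tested. Of 24 list medians, 4 kept their sign under every setting: acute phase, adipogenic genes, oxidative phosphorylation (-0.74 to -0.15) and genes given as higher in old cells. No paired analysis was possible because both sides are cells of 1 age group and cell numbers are only names. Depth is unknown, 22 cells without Serpina3n give wide intervals, a cell under 1 FPKM may hold RNA that was not caught, and no animal or chip is named for any cell.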
